A study of Mus musculus with 6 samples.

Results

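The genes described are 7 subunits of the NADPH oxidases: the catalytic genes Nox1, Cybb (Nox2) and Nox4, the membrane partner Cyba (p22phox), the organiser Ncf1 (p47phox), the regulatory Ncf4 (p40phox) and the activator Noxa1. They were taken by gene symbol, and all 7 were found among the 29872 symbols of the deposited count table. They were chosen by their counts in CML and WT cells, with the difference between these groups already known, so that difference is given for them as a description and without p-values. Bulk RNA sequencing was done on 3 CML (chronic myeloid leukaemia) and 3 wild-type (WT) libraries, all from untreated bone marrow of the C57BL/6 background. Cells of both groups were expanded ex vivo and carry the stem cell gate label Lin- Sca1+ cKit+ CD150+. The labels name neither the allele behind the leukaemia nor the sex, age or culture conditions. They do not say that libraries of a group are from different mice or cultures, so p-values reflect only how much these libraries vary, and that variation may be technical.

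NADPH oxidases carry electrons from NADPH across a membrane to oxygen and so make superoxide or hydrogen peroxide. In phagocytes the catalytic Cybb protein sits in the membrane with Cyba and is switched on when cytosolic subunits, among them Ncf1 and Ncf4, and the small GTPase Rac bind to it. Nox1 also needs Cyba and Rac but is best known from colon epithelium, where Noxo1 serves as organiser and Noxa1 as activator, while Nox4 needs Cyba and is active without these cytosolic partners. In haematopoietic stem and progenitor cells, oxidase-derived peroxide is studied as a signal that bears on quiescence and proliferation.

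The genes behind the gate were read in every library. Kit was at 202, 402 and 321 CPM (counts scaled to library size, adjusted by TMM) in CML replicates 1, 2 and 3, and at 285, 302 and 290 CPM in WT. Ly6a, which encodes Sca1, was at 81.7, 172 and 65.3 CPM in CML, against 40.0, 52.4 and 64.2 in WT. Slamf1, which encodes CD150, was at 11.2, 19.2 and 12.1 CPM in CML, against 23.6, 31.8 and 18.7 in WT. Slamf1 passed the threshold as lower in CML (-0.80 on the log2 scale, edgeR adjusted p = 0.0470), a call lost with library totals (0.0563), with a stricter filter of 50 mean counts (0.0520) and when CML replicates 1 (0.0946) or 3 (0.152), or WT replicates 1 (0.134) or 2 (0.158), were left out singly. Library totals lay between 13323552 and 15433562 counts in CML and between 15930648 and 17926866 in WT. Spearman coefficients across genes were 0.983 to 0.992 within groups and 0.951 to 0.970 between them. Of 16221 genes with enough counts to be tested, 2820 passed the threshold (edgeR quasi-likelihood test, Benjamini-Hochberg adjusted p under 0.05), 1652 higher and 1168 lower in CML. Scaled by library totals alone the split was 2065 higher and 732 lower, and without WT replicate 3 it was 2021 and 2101.

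Nox1 and Cybb, both on chromosome X, are shown first by their start regions, because these related catalytic genes differed between the groups in opposite directions. The sequences are the RefSeq windows of 300 bases around the transcript start on GRCm38.p6, 5′ to 3′ on the minus strand, at chrX:134111805-134112104 for Nox1 and chrX:9469275-9469574 for Cybb. Capitals mark GAGGAA or its reverse complement TTCCTC, the core bound by the myeloid factor PU.1 (Spi1).
Nox1: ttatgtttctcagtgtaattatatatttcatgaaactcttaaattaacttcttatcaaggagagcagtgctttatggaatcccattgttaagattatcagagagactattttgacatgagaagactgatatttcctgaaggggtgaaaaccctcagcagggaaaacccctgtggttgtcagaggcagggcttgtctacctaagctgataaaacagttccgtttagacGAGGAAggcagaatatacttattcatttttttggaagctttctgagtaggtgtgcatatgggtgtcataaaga
Cybb: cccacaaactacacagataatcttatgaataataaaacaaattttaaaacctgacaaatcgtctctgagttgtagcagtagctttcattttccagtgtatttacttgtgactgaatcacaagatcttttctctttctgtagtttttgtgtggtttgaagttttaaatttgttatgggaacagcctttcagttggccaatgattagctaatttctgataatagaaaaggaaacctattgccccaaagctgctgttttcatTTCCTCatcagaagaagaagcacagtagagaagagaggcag
Nox1 held 1 match, whose first base lies at position -23 from the start, and Cybb held 1 match on the other strand, whose first base is base 10 of the transcript. Of all 32851 windows of the same length, 28.3% held this motif. The windows of Cyba, Ncf1, Nox4 and Noxa1 held 0 matches, and Ncf4 had no entry in the table. The GATA core GATAA, searched on both strands, occurred 3 times for Nox1, 2 times for Cybb, 2 times for Cyba and 1 time for Noxa1, and 25.4% of all windows held it. The STAT core TTCNNNGAA was found once each for Ncf1 and Nox4, and in 8.3% of all windows. None of these motifs overlapped another in the Nox1 and Cybb windows, and a match here is a description of the letters only.

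In CML cells transcripts of the phagocyte-type subunits Cybb, Cyba, Ncf1 and Ncf4 were higher than in WT cells, and those of Nox1 were far lower. In bulk libraries, a change in the number of cells of a type and a change in RNA per cell cannot be told apart. Of the 7 genes, 5 passed the filter on low counts, and all 5 passed the threshold of the fit over all genes, 4 higher and 1 lower in CML. In that fit 17.4% of all tested genes passed in either direction, 10.2% as higher and 7.20% as lower. The CML and WT libraries of all 5 did not overlap, as for 35.0% of all tested genes. Nox1 passed the filter through its WT libraries, as CML replicates 1 and 2 held 9 and 8 counts, below the minimum of 10. Its place among the tested genes thus depended on a high WT level. The genes were also picked with this contrast known, so these numbers of calls support nothing by themselves.

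Nox1 (chromosome X, 134086421 to 134221956, GENCODE M21 on GRCm38) had 9, 8 and 15 counts in CML replicates 1, 2 and 3, against 312, 267 and 325 counts in WT replicates 1, 2 and 3. On the scaled level this was 0.565, 0.584 and 0.939 CPM in CML, against 18.6, 16.9 and 20.2 in WT. Every CML library lay far below every WT library. The WT libraries were close to each other, while CML replicate 3 stood above the other CML libraries, at counts of 8 to 15. The fitted level was 26.3-fold lower in CML (log2 fold change -4.71, SE 0.24), the lowest of all 16221 tested genes in that fit. The value ran from -5.00 to -4.58 over the 14 alternatives tried. Nox1 shares 399 exon bases with Cstf2, a gene of mRNA 3′ end processing on the opposite strand, and the strand setting of the counts is not given. Cstf2 was at 135, 127 and 140 CPM in CML, against 163, 176 and 160 in WT, and its log2 fold change, -0.31 with an SE of 0.11, missed the threshold (edgeR adjusted p = 0.0613). Xkrx and Arl13a, which overlap the locus without shared exon bases, had at most 19 and 3 counts in a library.

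Cybb (chromosome X, 9435252 to 9487771), the phagocyte catalytic subunit, had 965, 2066 and 1146 counts in CML and 191, 176 and 298 in WT. In CPM it stood at 60.6, 151 and 71.7 in CML, against 11.4, 11.1 and 18.6 in WT. CML replicate 2 stood well above the other CML libraries, all of which were above WT, and WT replicate 3 was the highest WT library. The fitted log2 fold change was 2.78 (SE 0.45, 6.88-fold). It was 2.27 without CML replicate 2. Without WT replicate 1 (2.66) or WT replicate 2 (2.65) it no longer passed the threshold.

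The third catalytic gene, Nox4 (chromosome 7, 87246096 to 87398710), was close to the detection limit. It had 9, 0 and 8 counts in CML and 6, 7 and 5 in WT, 17 against 18 in all, and was not tested. The groups overlapped, and a difference was not detectable at this depth.

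Cyba (chromosome 8, 122424776 to 122432930), which stabilises the catalytic subunits in the membrane, was at 65.1, 61.1 and 59.9 CPM in CML, against 27.1, 28.8 and 35.3 in WT. It was the most even of these genes among the CML libraries, with a mean of 62.0 ± 2.71 CPM against 30.4 ± 4.32 CPM in WT (SD, n = 3 each). The log2 fold change was 1.03 (SE 0.13).

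Ncf1 (chromosome 5, 134220053 to 134229625), the organiser that carries the cytosolic subunits to the membrane, was at 105, 116 and 138 CPM in CML, against 41.5, 38.1 and 63.2 in WT. The lowest CML library was above the highest WT library, WT replicate 3. The log2 fold change was 1.33 (SE 0.19). The locus overlaps that of Gtf2ird2 on the opposite strand without shared exon bases, and Gtf2ird2 stood at 6.01 ± 0.32 CPM in CML, against 6.32 ± 0.41 in WT (SD, n = 3 each).

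Ncf4 (chromosome 15, 78244801 to 78262580), which binds a membrane phosphoinositide, was at 21.2, 23.7 and 26.7 CPM in CML, against 10.5, 10.1 and 12.8 in WT. The log2 fold change was 1.10 (SE 0.16), close to that of Cyba. In all 5 tested genes, those higher in CML and Nox1 alike, WT replicate 3 was the highest WT library.

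Noxa1 (chromosome 2, 25085667 to 25095149), the activator that serves Nox1 in epithelium, had 0 counts in each CML library and 0, 0 and 1 counts in WT. A count of 0 allows up to 3 counts, that is 0.188, 0.219 and 0.188 CPM in CML replicates 1, 2 and 3. It was not tested, and no fold is given.

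**Figure D1:**
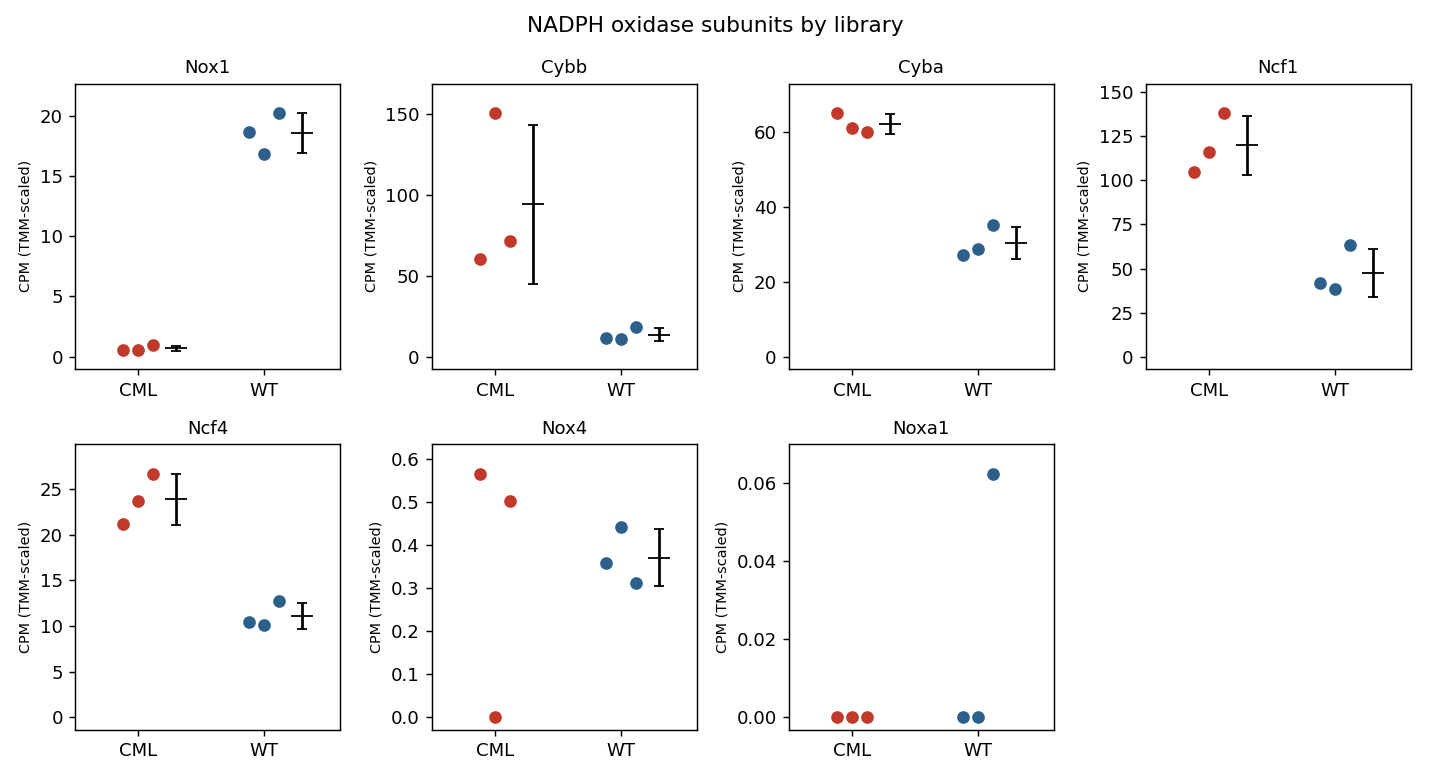
CPM (TMM-scaled) of the 7 oxidase genes in each library, with red points for CML, blue points for WT and the mean ± SD beside groups with no library at 0. Nox1 lies at 0.565 to 0.939 CPM in CML and 16.9 to 20.2 CPM in WT, while Cybb, Cyba, Ncf1 and Ncf4 lie higher in each CML library than in any WT library.

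The makeup of the catalytic transcripts was compared within each library after dividing by exon length (CPM per kb), which allows a rough comparison of different genes. The length was that of all annotated exons of a gene merged. Which transcripts were expressed was not tested, so the shares per kb are approximate. Nox1 made up 1.68%, 0.713% and 2.35% of the summed level of Nox1, Cybb and Nox4 in CML replicates 1, 2 and 3, against 74.5%, 72.9% and 66.5% in WT. Cybb made up 97.2%, 99.3% and 96.8% in CML and 24.6%, 25.9% and 32.9% in WT. The main catalytic transcript was thus Cybb in every CML library and Nox1 in every WT library. By counts alone, Nox1 held 0.916% of the catalytic counts in CML replicate 1 (exact Clopper-Pearson 95% interval 0.419 to 1.73%), 0.386% in replicate 2 (0.167 to 0.759%) and 1.28% in replicate 3 (0.720 to 2.11%). In WT it held 61.3% (56.9 to 65.5%), 59.3% (54.6 to 63.9%) and 51.8% (47.8 to 55.7%). These intervals cover counting error only. The summed catalytic level was 13.1, 31.9 and 15.6 CPM per kb in CML and 9.76, 9.03 and 11.9 CPM per kb in WT. The groups did not overlap, but CML replicate 1 was close to WT replicate 3, and CML replicate 2 was far above the rest.

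**Figure D2:**
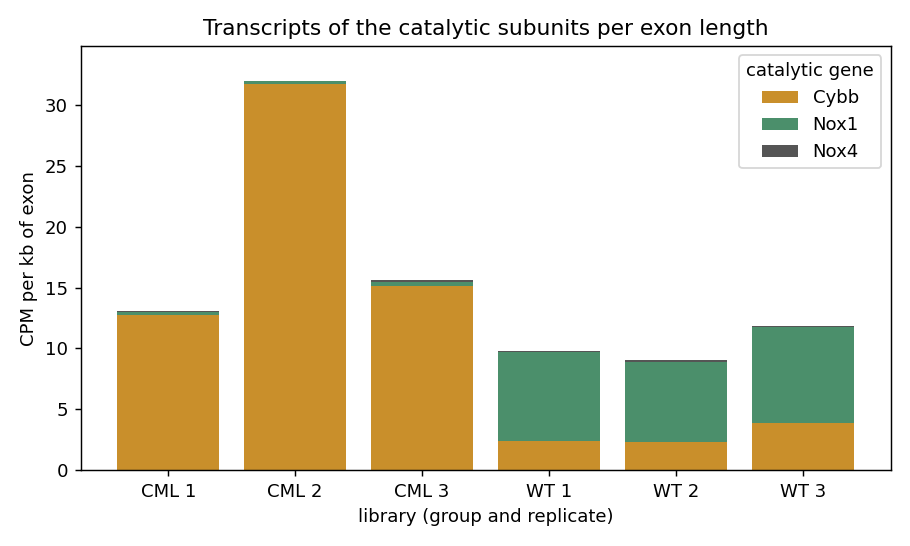
Level per exon length (CPM per kb) of Cybb, Nox1 and Nox4, stacked for each library. Cybb fills 96.8 to 99.3% of the bar in CML libraries, and Nox1 fills 66.5 to 74.5% in WT libraries.

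Per exon length the order of the genes also differed. In CML it ran from Cyba (83.4 ± 3.65 CPM per kb) and Ncf1 (41.5 ± 5.87) to Cybb (19.9 ± 10.3) and Ncf4 (16.3 ± 1.88), with Nox1 at 0.271 ± 0.082 and Nox4 at 0.090 ± 0.078 (SD, n = 3). The means of Cybb and Ncf4 in CML were closer than the spread of Cybb, and their order rests on CML replicate 2 (31.7 against 16.2 CPM per kb). Cybb was below Ncf4 in CML replicate 1 (12.7 against 14.4) and in CML replicate 3 (15.1 against 18.2). In WT the order ran from Cyba (40.8 ± 5.80) and Ncf1 (16.5 ± 4.71) to Ncf4 (7.59 ± 0.989), Nox1 (7.25 ± 0.661) and Cybb (2.88 ± 0.887), with Nox4 at 0.094 ± 0.017 CPM per kb. Ncf4 and Nox1 were within their spread of each other in WT. Cyba exceeded the sum of the catalytic genes in every library. The level of Cybb relative to Cyba per kb was 0.146, 0.386 and 0.187 in CML and 0.066, 0.060 and 0.082 in WT. The level of Ncf4 relative to Cyba, at 0.165, 0.197 and 0.226 in CML and 0.196, 0.178 and 0.184 in WT, overlapped between the groups, as did that of Ncf1, at 0.416, 0.490 and 0.596 in CML and 0.396, 0.342 and 0.462 in WT.

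The other genes of the complexes were not chosen as members and were tested in the same fit. This list and the others, gate and marker lists included, were also drawn up with earlier results of these data known. Their counts of calls and adjusted p-values are therefore a description. Of 11 such genes, 9 were in the table and 5 were tested, of which 2 rose in CML and 0 fell. Over all tested genes, 10.2% passed as higher and 7.20% as lower.

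Rac2, the Rac GTPase of blood cells, rose to 345, 444 and 417 CPM in CML, against 265, 269 and 320 CPM in WT (0.50 on the log2 scale, SE 0.13, adjusted p = 0.0195 by edgeR). It missed the threshold with 1 library left out, namely CML replicates 2 (0.0955) or 3 (0.0830), or WT replicates 1 (0.0693) or 2 (0.105). Rac1, its widely expressed relative, was at 330 ± 26.6 CPM in CML, against 407 ± 29.7 in WT (SD, n = 3 each) and did not pass (log2 fold change -0.30 ± 0.12 SE, adjusted p = 0.0918), except without WT replicate 3 (-0.35, adjusted p = 0.0252). Cybc1, a chaperone needed for the Cybb and Cyba proteins, was at 133, 132 and 135 CPM in CML, against 92.4, 97.9 and 114 in WT. It rose by 0.39 ± 0.11 SE on the log2 scale (edgeR adjusted p = 0.0313), a call lost with no low-count filter (0.0532) and with 1 library left out, namely CML replicates 1 (0.0550), 2 (0.0837) or 3 (0.108), or WT replicates 1 (0.125) or 2 (0.154).

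Rap1a, a GTPase that copurifies with the flavocytochrome, was at 139 ± 14.2 CPM in CML, against 148 ± 16.8 in WT (log2 fold change -0.09 ± 0.12 SE, edgeR adjusted p = 0.689), and its sign turned to 0.012 when scaled by library totals. Noxo1, the organiser of Nox1, was scarce at 0.922 ± 0.222 CPM in CML, against 0.495 ± 0.174 in WT and did not pass (log2 fold change 0.89 ± 0.43 SE, adjusted p = 0.177). It shares 1347 exon bases with Tbl3 on the opposite strand, so its value is uncertain. Rac3, Duox1, Duox2 and Duoxa1 had at most 7, 2, 3 and 4 counts in a library and were not tested.

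**Figure D3:**
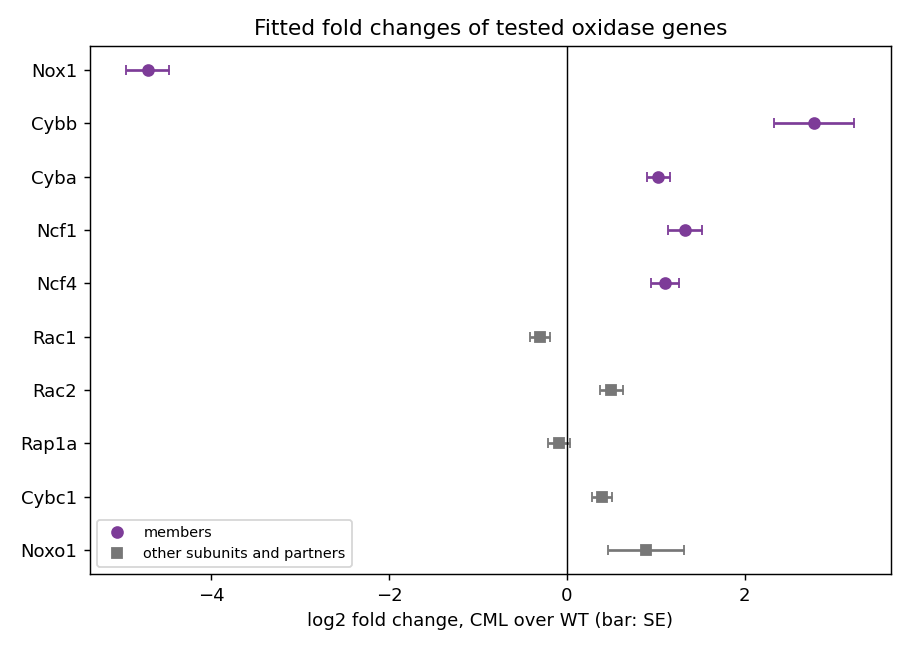
Fitted log2 fold changes of CML over WT with SE bars, for the 5 tested members (circles) and 5 tested partners (squares). Nox1 stands at -4.71, Cybb at 2.78 and Cyba, Ncf1 and Ncf4 at 1.03 to 1.33, while the partners lie between -0.30 and 0.89.

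Genes that assemble or activate the oxidase were mixed: of 19 tested, 6 rose and 3 fell, against 10.2% and 7.20% of all tested genes. The median log2 fold change was 0.31 in this list, against -0.0043 over all tested genes. Hvcn1, the proton channel that balances the charge moved by the oxidase, rose to 30.3, 28.9 and 31.4 CPM in CML, against 7.47, 7.51 and 10.9 CPM in WT libraries (log2 fold change 1.81 ± 0.17 SE, edgeR adjusted p = 1.54e-05). Prkcd and Prkcb, kinases that can phosphorylate Ncf1, rose by log2 fold changes of 1.34 (SE 0.13, adjusted p = 2.58e-05) and 3.51 (SE 0.41, adjusted p = 8.71e-04). Prkcb was at 12.6, 35.1 and 21.4 CPM in CML, against 2.21, 1.45 and 2.37 in WT, highest in CML replicate 2 like Cybb. Tiam1, an exchange factor that loads Rac with GTP, rose to 40.8 ± 3.89 CPM in CML, against 14.5 ± 1.56 CPM in WT (2.82-fold, adjusted p = 1.41e-05). The other genes of this list that rose were the exchange factor genes Prex1 (0.98) and Vav2 (0.78), and those that fell were Pla2g4a (-0.97), Vav3 (-0.65) and Pak1 (-0.39), all named after their values were seen.

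Of 15 tested transcription factors known from studies of oxidase genes, 3 rose and 0 fell, with a median log2 fold change of 0.21. The shares over all tested genes were 10.2% higher and 7.20% lower. Irf1, an interferon-induced factor, was at 74.0 ± 4.52 CPM in CML, against 46.7 ± 5.80 in WT (SD, n = 3 each; log2 fold change 0.66 ± 0.12 SE, edgeR adjusted p = 0.00273). Spi1, which encodes PU.1, was at 42.9, 45.5 and 42.3 CPM in CML, against 28.6, 29.7 and 38.9 in WT, and it passed narrowly at 0.43 ± 0.14 SE on the log2 scale (edgeR adjusted p = 0.0478). In the edgeR fit Spi1 missed the threshold with RLE scaling, the size factors of DESeq2 (0.0504), and with no low-count filter (0.0604). It also missed with 1 library left out, namely CML replicates 1 (0.0675), 2 (0.143) or 3 (0.110), or WT replicates 1 (0.170) or 2 (0.216). The Wald test of DESeq2 itself kept the call (adjusted p = 0.0461). Hoxa10 had a log2 fold change of 1.73 (adjusted p = 0.0439) and missed the threshold with limma-voom (0.144), with no low-count filter (0.146) and with 1 library left out, namely CML replicates 1 (0.0582) or 2 (0.128), or WT replicates 1 (0.146), 2 (0.167) or 3 (0.135).

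Among genes that handle superoxide and peroxide, 1 of 17 tested rose and 5 fell, with a median log2 fold change of -0.17. For this list and the next, 10.2% of all tested genes rose and 7.20% fell. The one that rose was Aqp9, an aquaporin, at 98.6 ± 20.4 CPM in CML, against 51.2 ± 5.28 in WT (log2 fold change 0.95 ± 0.15 SE, edgeR adjusted p = 9.43e-04). Prdx4, a peroxiredoxin of the endoplasmic reticulum, fell to 17.3 ± 4.42 CPM in CML, against 38.0 ± 4.97 CPM in WT libraries (log2 fold change -1.14, adjusted p = 9.70e-04), and Txn1, thioredoxin, fell to 73.2 ± 12.5 CPM, against 132 ± 18.3 CPM in WT (-0.85, adjusted p = 0.00173). Sod2, the mitochondrial superoxide dismutase, fell by 0.36 (adjusted p = 0.0311) and missed the threshold with library totals (0.0977) and with 1 library left out, namely CML replicates 2 (0.118) or 3 (0.113), or WT replicates 1 (0.0797) or 2 (0.141). Prdx1 (-0.35) and Prdx6 (-0.37) also fell and were named after their values were seen. Of 13 enzymes that make NADPH or its precursors, 3 rose and 1 fell, with a median of 0.054. Nadk, the cytosolic NAD kinase, rose by 0.79 (adjusted p = 6.06e-04), and Idh1, the cytosolic isocitrate dehydrogenase, by 0.65 (adjusted p = 0.0106). Taldo1, of the pentose phosphate pathway, rose by 0.46 (adjusted p = 0.0200), a call lost with 1 library left out, namely CML replicates 2 (0.0854) or 3 (0.0828), or WT replicates 1 (0.0807) or 2 (0.0846). Nadk2, the mitochondrial NAD kinase, fell by 0.45 (adjusted p = 0.0202), a call lost with 1 library left out, namely CML replicates 2 (0.0542) or 3 (0.104), or WT replicate 2 (0.134).

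Marker sums of mast cells and basophils, monocytes and macrophages, dendritic cells and B cells were higher in every CML library than in any WT library. So were Cybb, Cyba, Ncf1 and Ncf4. The neutrophil and eosinophil sums overlapped between the groups. The summed level of 15 mast cell and basophil markers was 2389, 8376 and 5288 CPM in CML, against 402, 197 and 384 in WT, and its order among the CML libraries was that of Cybb. Of these markers 14 were tested, of which 8 rose and 0 fell, with Hdc, the histamine-forming enzyme, at 295 ± 99.98 CPM in CML, against 5.01 ± 1.94 in WT, and the tryptase Tpsab1 at 87 counts in all in CML and 5 in WT. The summed level of 16 monocyte and macrophage markers was 364, 435 and 377 CPM in CML, against 242, 240 and 303 in WT. Its order among the CML libraries was that of Cybb as well. The gate, erythroid, and endothelial and stromal sums also had this order, although the erythroid sum was lower in CML. Of 10 monocyte and macrophage markers tested, 5 rose and 0 fell. Adgre1 (F4/80) rose to 55.5, 84.5 and 62.2 CPM in CML, against 1.43, 1.52 and 1.56 CPM in WT, and Csf1r to 19.7 ± 2.94 CPM, against 3.77 ± 1.67 CPM. The largest part of the sum in every library was Lyz2, at 230 ± 14.4 CPM in CML, against 228 ± 29.0 in WT. It was among the 5 not called, with Fcgr1 (log2 fold change 0.09), F13a1 (-0.53), Cx3cr1 (1.11) and Ccr2 (1.01). The 18 neutrophil markers summed to 232, 307 and 350 CPM in CML, against 203, 196 and 347 in WT, with 1 of 12 tested higher (Itgam) and 1 lower (Padi4). In WT the monocyte and neutrophil sums, like all 5 tested oxidase genes, were highest in replicate 3. So were the sums of dendritic cell, eosinophil, B cell, T and NK cell, and endothelial and stromal markers. Sums of mast cell and basophil, erythroid and gate genes were not. Dendritic cell markers summed to 43.9, 136 and 156 CPM in CML, against 19.95, 27.4 and 42.0 in WT, with 3 of 6 tested higher, among them Batf3 (54 counts in CML and 4 in WT) and Fscn1 (530 and 9 counts), and eosinophil markers to 8.85, 19.2 and 37.2 CPM in CML, against 16.9, 15.3 and 19.2 in WT, with 0 of 2 called. No listed marker was at 0 in all 6 libraries, but the defining markers Ly6g, Camp, C1qa and Marco had at most 3 counts over a whole group. The part of these cell types in the oxidase values was not tested. Counts of called markers, here and below, stand beside 10.2% higher and 7.20% lower over all tested genes. Some called markers, among them Tpsab1, Batf3, Fscn1 and Klf1, had at most 4 counts in a WT library. These passed the low-count filter through CML and could hardly be called lower, so the counts are in part fixed by the filter.

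B cell markers summed to 46.7, 43.0 and 50.7 CPM in CML, against 12.2, 12.6 and 17.1 in WT, without overlap. Of 8 such markers 2 were tested, Cd79b and Ighm, and both rose, while Cd79a had at most 3 counts in a library. T and NK cell markers summed to 56.0, 69.5 and 70.2 CPM in CML, against 68.9, 74.1 and 89.3 in WT, with 0 of 2 tested members called. Those 2, Lck and Nkg7, held most of the sum, while Cd3e, Cd3d and Cd3g had at most 3 counts in a library. Erythroid markers summed to 24.1, 87.1 and 65.6 CPM in CML, against 208, 231 and 226 in WT, with 1 of 6 tested higher (Klf1, 75 counts in all in CML and 7 in WT) and 2 lower, among them the globin gene Hbb-bs at 13.1 ± 6.09 CPM in CML, against 52.3 ± 4.52 in WT (SD, n = 3 each). Endothelial and stromal markers, of interest because Nox4 is known from such cells, summed to 95.8, 136 and 129 CPM in CML, against 99.5, 71.5 and 112 in WT, with Kdr lower in CML as 1 of 2 tested. Pecam1 alone stood at 91.0, 133 and 125 CPM in CML and at 91.4, 64.3 and 103 in WT. The untested markers of this list had at most 14 counts in a library.

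**Figure D4:**
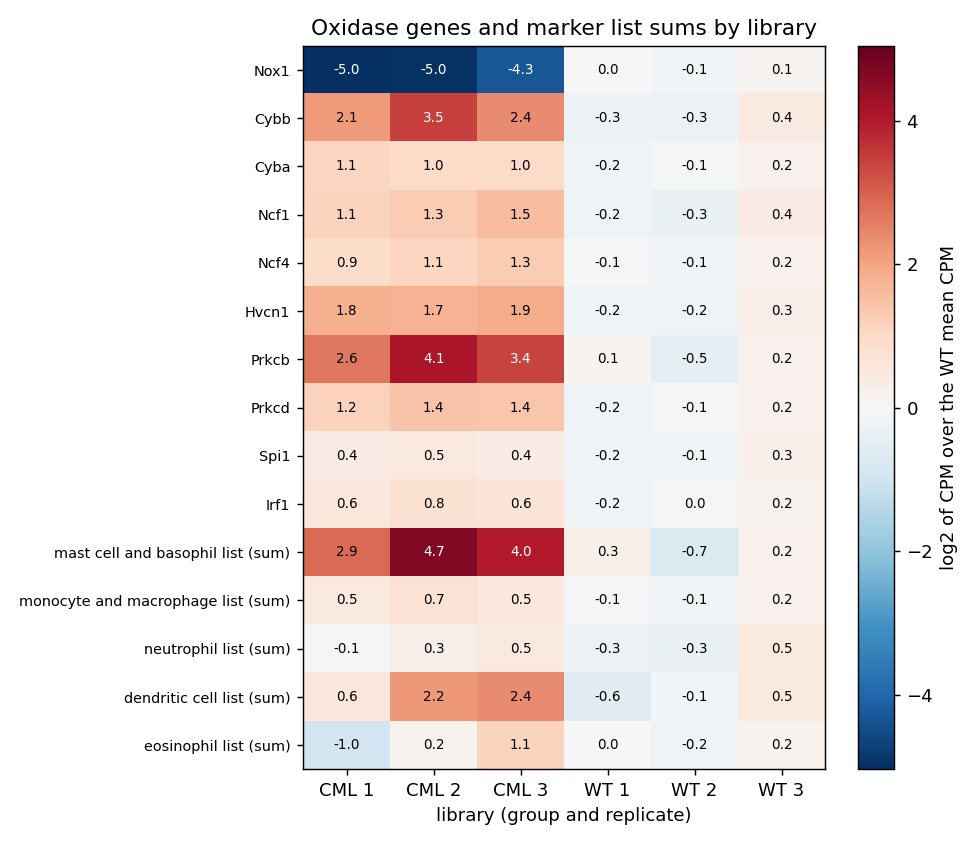
Log2 of the CPM over the WT mean CPM in each library, for oxidase genes, selected regulators and the summed levels of 5 marker lists. Nox1 is between -5.04 and -4.31 in the CML libraries, and Cybb, Prkcb and the mast cell sum are highest in CML replicate 2. Prkcd, Spi1, Irf1 and the monocyte sum are also highest in CML replicate 2, and the other rows are not.

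Genes with the profile nearest to Nox1 and to Cybb were named by the root mean square difference of log2 CPM over the 6 libraries after centring each gene. Nearest to Nox1 were Tox (0.351), Mcf2 (0.522), Gem (0.549), Hdac9 (0.774) and Mycn (0.790), all lower in CML. Tox stood at 1.07 CPM in CML, against 23.1 in WT on average, and Mcf2, which encodes a guanine nucleotide exchange factor, at 0.411 CPM in CML and 6.69 in WT. Nearest to Cybb were Nrip3 (0.196), Sdc4 (0.200), Cdh17 (0.220), Itgb5 (0.231) and Mapk8ip1 (0.241), all higher in CML. Sdc4, a heparan sulfate proteoglycan gene, stood at 46.1 CPM in CML, against 8.25 in WT. With 6 libraries in 2 groups, a gene with a like difference between the groups will be near by this measure.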

How the data were processed

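The authors deposited 1 table of estimated counts per gene, neither scaled nor whole in 35.0 to 36.9% of entries. Per the submitters' processing notes, which give no role or order, the tools include STAR 2.7.3a and Partek 8.0, with mm10 as genome build. Annotation, strand setting and the division of shared reads: not given in the sources used here. Group and replicate were read from the sample titles. Counts were rounded and filtered with filterByExpr of edgeR (minimum count 10). CML was compared with WT over 16221 genes with edgeR 4.0.16 and its quasi-likelihood test (R 4.3.3, TMM, robust, no covariates, two-sided), with Benjamini-Hochberg adjustment over all genes and a threshold of 0.05. SEs were derived from the fold change and F. CPM uses TMM-scaled library sizes. Exon lengths and loci came from GENCODE M21 by exact symbol, which matched 96.9% of symbols, and start regions from RefSeq. The pipeline was tested on simulated data. Alternatives were other scalings, filters, DESeq2 1.42.0, limma-voom 3.58.1, a replicate block and leaving out each library. Use of molecular identifiers is not known from the sources used here, so copies of a molecule may be counted more than once. The intervals cover counting error only and may be too narrow.

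The members and lists were chosen with earlier results of these data known. Named genes were the 7 members, the listed partners, up to 4 called genes with the lowest adjusted p of each pathway list, up to 2 of each marker list, and the 5 nearest profiles of Nox1 and Cybb. Nox3, Duoxa2 and Cdx2 were listed but not analysed here, and 1 other listed partner and 1 listed B cell marker are not reported here.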

Additional observations from a re-analysis of the deposited data

How the results depend on the processing

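The 5 tested oxidase members kept their direction under all 14 alternatives, and they kept their side of the threshold under all except Cybb without WT replicate 1 or 2. Leaving out 1 library gave 4 to 5 members past the threshold, 3 to 4 of them higher. Over all genes it gave 1466 to 4122 calls, 1011 to 2021 higher and 455 to 2101 lower, and scaling by library totals gave 732 lower. The total was 1861 without CML replicate 2, 1771 without CML replicate 3, 1857 without WT replicate 1, 1466 without WT replicate 2 and 4122 without WT replicate 3. Partners past the threshold numbered 0 to 3 with 1 library left out and 1 with no low-count filter, and genes of the other lists 30 to 58 against 47. The log2 fold change of Rap1a turned to 0.012 with library totals. The replicate block gave 2807 calls, 1607 higher and 1200 lower, with 5 members, 2 partners and 47 list genes. The labels do not say whether equal replicate numbers pair the libraries. Deviations from the group means correlated at -0.02, -0.05 and 0.009 between libraries of equal number. Of the 3 CML libraries, 0 correlated best with its own number. With 3 libraries in each group, such correlations cannot settle whether the libraries are paired. Slamf1, Fscn1 and Hbb-bs also lost their calls under some alternatives. Nox4 and Noxa1 are limited by depth.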
